A study of Mus musculus with 6 samples.

Results

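The genes described here are the core of de novo fatty acid synthesis: the transcription factor genes Srebf1 and Mlxipl, the enzyme genes Acly, Acaca, Acacb, Fasn, Scd1, Elovl6 and Me1, and the lipogenic protein gene Thrsp. They were chosen by name, with earlier results of these data known, and all 10 were found among the 34745 genes of the table. The data are RNA-seq of whole mouse liver after 6 weeks on an MCD diet, a feed without methionine and choline that is used to bring on steatohepatitis, a fatty and inflamed liver. One group was Sox9f/f, in which Sox9 is flanked by loxP sites (replicates 5, 6 and 8), and the other Sox9HKO, read here as a Sox9 knockout (replicates 9, 10 and 12). The labels do not name the Cre driver, the cells in which Sox9 was to be lost, or the sex and age of the animals, and every mouse had the same diet, so no level on normal feed can be given.

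Liver makes fatty acids from sugar carbon. Citrate leaves the mitochondria and is split into acetyl-CoA, acetyl-CoA is carboxylated to malonyl-CoA, and fatty acid synthase joins these units into palmitate with NADPH as the reductant. Palmitate is then lengthened and desaturated before it enters triglyceride. SREBP1, activated by insulin, and ChREBP, activated by sugar metabolites, are the main transcription factors of the pathway, and AMPK, the kinase in the title of the series, restrains it by phosphorylating both acetyl-CoA carboxylases.

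Total counts lay between 22826962 and 27286864 per library. Sox9 itself went against its label as read here: the Sox9f/f libraries held 127, 138 and 143 counts and the Sox9HKO libraries 411, 491 and 626. Counts over a whole gene do not show whether particular exons were missing. Each direction below is therefore between libraries as labelled, without a measured loss of Sox9 behind it.

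The lipogenic promoters are shown for Fasn and Acly, whose groups did not overlap, with the 250 bases before the start site in RefSeq (GRCm38.p6). Capitals mark matches on either strand to CCAAT, the box bound by NF-Y, to GGGCGG, the GC box bound by Sp1, to the E-box CACGTG, or to the sterol response element TCACNCCAC. The Fasn window lies at chr11:120824548-120824797 and the Acly window at chr11:100528001-100528250, both on the minus strand and both next to the first base of the gene model in the deposited table.
Fasn: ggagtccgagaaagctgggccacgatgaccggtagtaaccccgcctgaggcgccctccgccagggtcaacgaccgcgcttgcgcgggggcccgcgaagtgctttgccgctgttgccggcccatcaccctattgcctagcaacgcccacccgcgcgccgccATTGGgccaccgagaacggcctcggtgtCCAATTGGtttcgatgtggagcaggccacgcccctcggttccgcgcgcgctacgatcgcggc
Acly: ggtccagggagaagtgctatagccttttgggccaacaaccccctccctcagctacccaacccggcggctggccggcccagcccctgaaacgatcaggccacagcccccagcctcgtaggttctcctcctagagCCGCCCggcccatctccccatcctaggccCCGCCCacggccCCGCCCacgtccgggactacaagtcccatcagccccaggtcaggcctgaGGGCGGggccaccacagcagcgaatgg
The Fasn window held CCAAT matches beginning 90, 62 and 59 bases before the start, the last 2 overlapping on opposite strands. The Acly window held GGGCGG matches only, beginning 117, 88, 76 and 27 bases before the start.

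Thrsp, whose groups did not overlap either, held a pair of CCAAT matches before its RefSeq start. Each is shown here in 30 bases of the minus strand, at chr7:97417612-97417641 and chr7:97417585-97417614. The gene model of the deposited table begins farther upstream, so these bases lie inside its first exon, in the 5′ UTR (GENCODE M21).
Thrsp, distal match: ccaaacgctgggATTGGctcaaaacagggc
Thrsp, proximal match: ggctgtgttgctCCAATggttgggctttgg
RefSeq windows were matched for 9 of the 10 genes, all but Scd1, with 13 windows in all since some genes have several starts. CCAAT was present in 7 of the 13 windows, against 33.8% of all 32851 promoter windows of this length, and GGGCGG in 5 of 13, against 32.7%. CACGTG stood in 1 window of Mlxipl (6.02% of all windows), and TCACNCCAC in another window of Mlxipl (1.05%). These matches describe the letters of the windows and are not evidence of binding.

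All 10 genes had lower fitted levels in the Sox9HKO libraries, except that the sign turned for Mlxipl with library-size scaling and for Mlxipl and Acacb in the voom fit and in some fits without 1 library. Thrsp, Fasn and Acly were lower there in every library than in any Sox9f/f library. None of the 10 passed the threshold of edgeR's quasi-likelihood test, an adjusted p of 0.05 over the 14137 genes tested, and 0 genes in all passed it (0%). Their log2 fold changes, Sox9HKO minus Sox9f/f, had a median of -0.39, beside 0.0044 over all genes tested, of which 49.5% were negative. Fitted decreases of 2-fold or more were found for 2 of the 10, Fasn and Thrsp, against 0.934% of tested genes. Before adjustment, 4 of the 10 had p under 0.05, Fasn, Acly, Thrsp and Acaca, all lower, against a background of 10.1% of tested genes in that direction. Acaca was near the limit, with an unadjusted p of 0.0468 in edgeR and 0.0524 in DESeq2. The count under 0.05 was 3 with DESeq2 and 5 with limma voom. Non-overlapping groups with Sox9HKO below were found for 3 of the 10, against 14.3% of tested genes. DESeq2, the other count test, called Fasn and Acly lower, against 2.05% of the genes for which it gave an adjusted p. Because no gene passed the main test, the values below are given without a call.

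**Figure D1:**
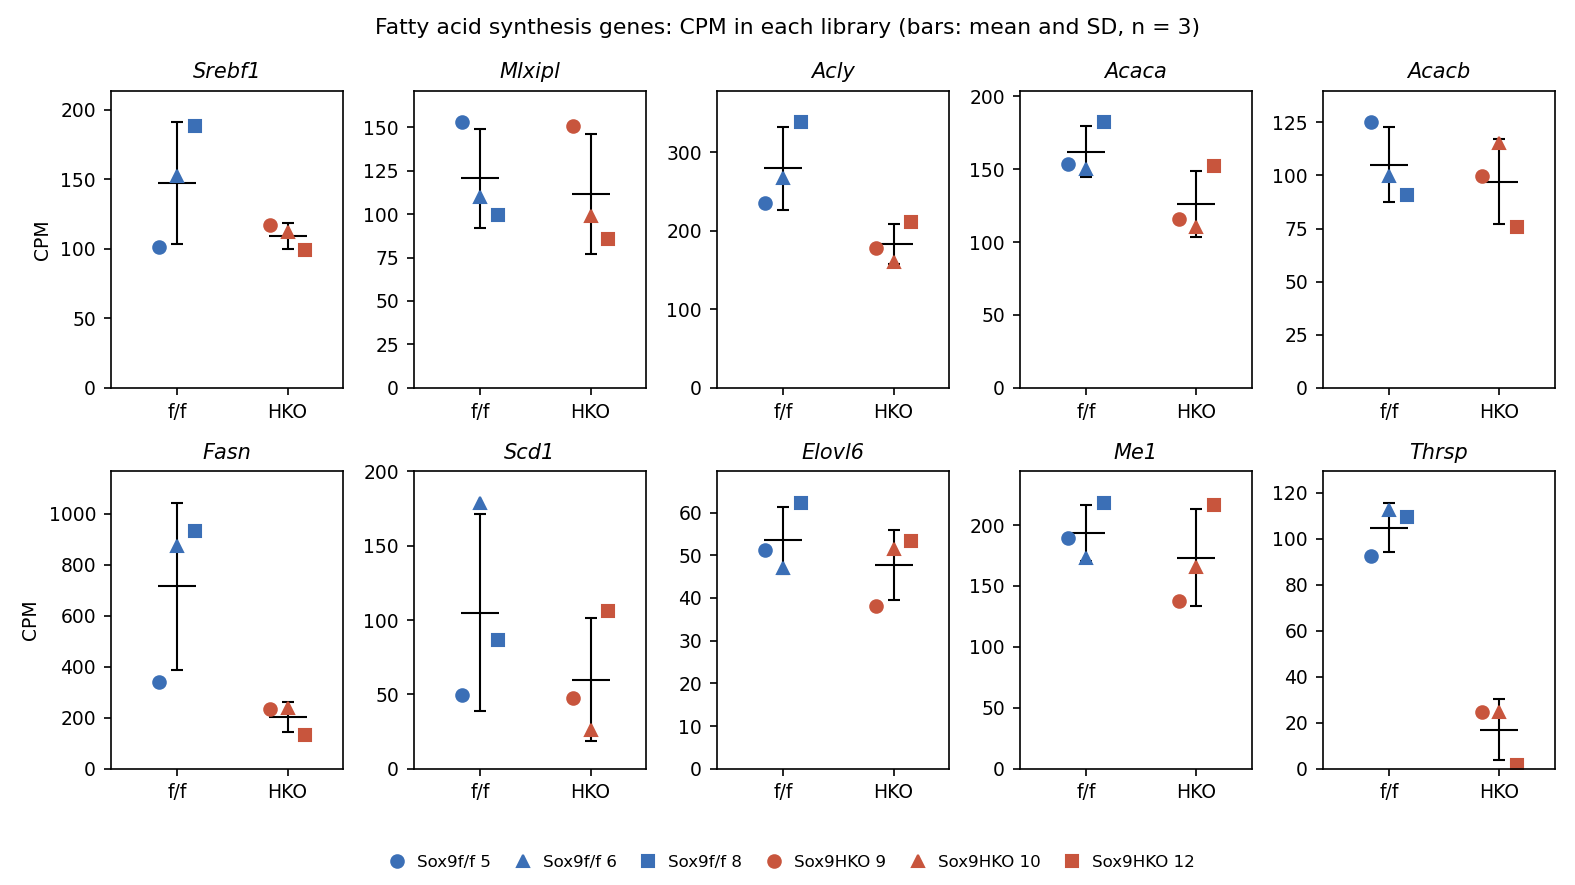
CPM (counts scaled to a common library size, with TMM factors) of the 10 genes in each of the 6 libraries; points are libraries, bars the mean and SD of 3. Thrsp, Fasn and Acly show no overlap between the groups, and the other 7 genes overlap.

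Among the transcription factors, Srebf1 encodes SREBP1, which binds the promoters of nearly every enzyme gene described here (ENSMUSG00000020538, chromosome 11, 60199089 to 60222581, minus strand, GRCm38). Srebf1 stood at 101, 152 and 188 CPM in Sox9f/f replicates 5, 6 and 8 and at 117, 112 and 99.1 CPM in Sox9HKO replicates 9, 10 and 12. Its groups overlapped because Sox9f/f replicate 5 lay among the Sox9HKO libraries. The log2 fold change was -0.43 ± 0.21 (SE), with an edgeR adjusted p of 0.304. It was -0.63 without Sox9f/f replicate 5 and -0.21 without Sox9f/f replicate 8, with edgeR adjusted p of 0.126 and 0.649. The table sums all Srebf1 transcripts, so its a and c forms, which start at different first exons, cannot be told apart, and Rai1 overlaps it on the opposite strand with 1557 counts in all libraries together against 19702 for Srebf1.

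Mlxipl encodes ChREBP, the sugar-responsive partner in lipogenic control (ENSMUSG00000005373, chromosome 5, 135089890 to 135138382, plus strand). Its levels were 153, 110 and 99.3 CPM in the Sox9f/f libraries and 151, 99.0 and 85.5 CPM in the Sox9HKO libraries. Each group had 1 library well above its other pair, so the groups covered nearly the same range. The log2 fold change was -0.11 ± 0.24 (SE), with a 95% interval of -0.67 to 0.45. Its sign turned to 0.0073 with library-size scaling, which moved the median of all genes to 0.11, to 0.10 without Sox9f/f replicate 5 and to 0.046 without Sox9HKO replicate 12.

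Within a library, the FPKM ratio of Mlxipl to Srebf1 was 1.56, 0.745 and 0.545 in the Sox9f/f libraries and 1.33, 0.913 and 0.891 in the Sox9HKO libraries. FPKM, the count scaled by gene length and by the library total, allows levels of different genes to be set side by side. Mean log2 ratios were -0.22 ± 0.78 (SD, n = 3) and 0.037 ± 0.32 (SD, n = 3), a difference within the spread of the Sox9f/f libraries. The two-sided exact permutation p was 0.6, and 0.6 after adjustment over the 3 ratios compared. The smallest p this design allows is 0.1.

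Acly, ATP citrate lyase, makes the cytosolic acetyl-CoA from which fatty acids and sterols are built (ENSMUSG00000020917, chromosome 11, 100476353 to 100528000, minus strand). Acly had 235, 267 and 338 CPM in the Sox9f/f libraries and 178, 160 and 211 CPM in the Sox9HKO libraries. The lowest Sox9f/f library, replicate 5, lay above the highest Sox9HKO library, replicate 12. Means were 280 ± 52.8 (SD, n = 3) and 183 ± 25.6 (SD, n = 3), 1.53-fold lower. On the log2 scale the difference was -0.61 ± 0.17 (SE), with an edgeR adjusted p of 0.151 and a DESeq2 adjusted p of 0.0448.

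The acetyl-CoA carboxylases commit acetyl-CoA to fatty acid synthesis. Acaca encodes the cytosolic form that feeds fatty acid synthase (ENSMUSG00000020532, chromosome 11, 84129672 to 84401651, plus strand). It stood at 154, 150 and 182 CPM in the Sox9f/f libraries and 116, 110 and 152 CPM in the Sox9HKO libraries. Sox9HKO replicate 12 reached the level of the lower Sox9f/f pair, while replicates 9 and 10 lay below. The log2 fold change was -0.36 ± 0.15 (SE), with a 95% interval of -0.72 to -0.0065 and an edgeR adjusted p of 0.246.

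Acacb encodes the form at the mitochondrial surface whose malonyl-CoA inhibits fatty acid import for oxidation (ENSMUSG00000042010, chromosome 5, 114146535 to 114250761, plus strand). Acacb had 125, 99.5 and 91.0 CPM in the Sox9f/f libraries and 100, 115 and 76.0 CPM in the Sox9HKO libraries. The ranges overlapped, and the fitted log2 fold change of -0.11 ± 0.18 (SE) had a 95% interval of -0.54 to 0.31. The sign turned to 0.032 without Sox9f/f replicate 5 and to 0.030 without Sox9HKO replicate 12.

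The FPKM ratio of Acacb to Acaca was 1.26, 1.03 and 0.776 in the Sox9f/f libraries and 1.34, 1.63 and 0.776 in the Sox9HKO libraries. Both genes thus had similar levels per length in whole liver. The log2 ratio differed by 0.25 between the groups, less than the SD within either group (0.35 and 0.55), with a two-sided exact permutation p of 0.6. RNA levels do not measure the phosphorylation of either carboxylase.

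Fasn encodes fatty acid synthase, the enzyme that makes palmitate (ENSMUSG00000025153, chromosome 11, 120805846 to 120824547, minus strand). Its levels were 339, 873 and 932 CPM in the Sox9f/f libraries and 236, 237 and 134 CPM in the Sox9HKO libraries. Sox9f/f replicates 6 and 8 lay far above the rest, and replicate 5 stood between them and the Sox9HKO libraries without reaching the latter. The log2 fold change was -1.82 ± 0.39 (SE), or 3.54-fold lower, with a 95% interval of -2.72 to -0.93. The adjusted p was 0.139 in edgeR and 1.71e-04 in DESeq2. In edgeR with 1 library left out, the lowest adjusted p was 0.0567, without Sox9f/f replicate 5, at a log2 fold change of -2.16. The highest was 0.353, without Sox9f/f replicate 8, at a log2 fold change of -1.59. Fasn ranked 158 by p among the 14137 genes tested.

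Thrsp encodes Spot14, a small nuclear and cytosolic protein that rises with carbohydrate feeding and thyroid hormone in rodents and promotes lipogenesis (ENSMUSG00000035686, chromosome 7, 97412938 to 97417730, minus strand). The Sox9f/f libraries held 2029, 2917 and 2696 Thrsp counts, or 92.6, 112 and 109 CPM. The Sox9HKO libraries held 661, 671 and 46 counts, or 24.7, 24.7 and 1.67 CPM. The Sox9f/f libraries lay close together, Sox9HKO replicates 9 and 10 were nearly equal, and replicate 12 was far below both. The highest library was 67.2-fold the lowest in CPM, the widest span of the 10 genes.

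The fitted log2 fold change of Thrsp was -2.62 ± 0.74 (SE), with an edgeR adjusted p of 0.154. Without Sox9HKO replicate 12 it was -2.09 and passed in edgeR with an adjusted p of 0.00618, 1 of 2 genes called in that fit. The call was thus absent with the library in which Thrsp was lowest and present without it. DESeq2 on all 6 libraries gave an adjusted p of 0.0906.

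**Figure D2:**
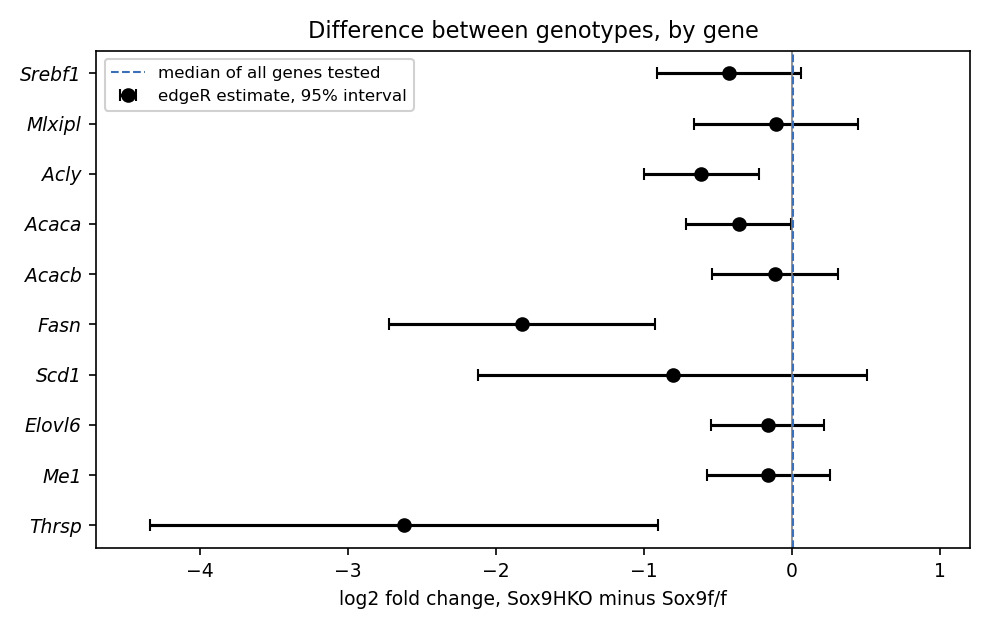
Fitted log2 fold change of each gene, Sox9HKO minus Sox9f/f, with its 95% interval from edgeR (n = 3 per group); the dashed line is the median of all genes tested. Intervals of Fasn, Thrsp, Acly and Acaca lie below 0, before any adjustment for the number of genes tested.

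Scd1 encodes stearoyl-CoA desaturase 1, which puts the double bond into palmitate and stearate and is known to be repressed by this diet (ENSMUSG00000037071, chromosome 19, 44394451 to 44407709, minus strand). Scd1 stood at 49.9, 179 and 86.3 CPM in the Sox9f/f libraries and 47.5, 26.1 and 106 CPM in the Sox9HKO libraries. The groups overlapped, and the highest Sox9HKO library was replicate 12, in which Fasn and Thrsp were lowest. The log2 fold change of -0.81 ± 0.57 (SE) had a 95% interval of -2.12 to 0.51, and it ranged from -1.52 without Sox9HKO replicate 12 to -0.17 without Sox9f/f replicate 6. Scd1 has near neighbours of similar sequence, and the counting could have split reads among them.

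The FPKM ratio of Scd1 to Fasn was 0.423, 0.589 and 0.267 in the Sox9f/f libraries. It was 0.581, 0.317 and 2.29 in the Sox9HKO libraries, so Scd1 exceeded Fasn per length in replicate 12 and lay below it in the other 5 libraries. The mean log2 ratio was 0.89 higher in the Sox9HKO group and 0.084 higher without replicate 12. The two-sided exact permutation p was 0.5 with all libraries and 0.6 after adjustment over the 3 ratios.

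Elovl6 lengthens palmitate to stearate (ENSMUSG00000041220, chromosome 3, 129532355 to 129638495, plus strand). It had 51.2, 47.0 and 62.2 CPM in the Sox9f/f libraries and 38.2, 51.5 and 53.2 CPM in the Sox9HKO libraries, with a log2 fold change of -0.17 ± 0.16 (SE). Only Sox9HKO replicate 9 lay below the Sox9f/f range.

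Me1 encodes cytosolic malic enzyme, a source of the NADPH used by fatty acid synthase (ENSMUSG00000032418, chromosome 9, 86581371 to 86695953, minus strand). Me1 had 189, 173 and 218 CPM in the Sox9f/f libraries and 138, 165 and 216 CPM in the Sox9HKO libraries, with a log2 fold change of -0.16 ± 0.18 (SE). The groups overlapped, and the intervals of Elovl6 (-0.55 to 0.21) and Me1 (-0.57 to 0.25) both include 0. Without Sox9HKO replicate 9 the log2 fold changes were -0.027 for Elovl6 and -0.015 for Me1, and without Sox9f/f replicate 8 they were -0.046 and -0.068. Without Sox9HKO replicate 12 they were -0.26 and -0.36.

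The libraries ordered the genes differently. Sox9HKO replicate 12 was the lowest of the 6 libraries for 5 genes, Srebf1, Mlxipl, Fasn, Acacb and Thrsp, yet the highest Sox9HKO library for the other 5, Acaca, Acly, Scd1, Elovl6 and Me1. Sox9f/f replicate 8 was the highest of the 6 for 6 genes, and none of the Sox9f/f libraries was the lowest of the 6 for any gene. These orders are of CPM with TMM factors, which were below 1 in each Sox9f/f library and above 1 in each Sox9HKO library. In FPKM, which lacks these factors, Srebf1 was lowest in Sox9f/f replicate 5. Mlxipl was then highest in Sox9HKO replicate 9 and Me1 in Sox9HKO replicate 12, so the order depended in part on the scaling. The summed level of the 10 genes was 1490, 2161 and 2306 CPM in the Sox9f/f libraries and 1145, 1101 and 1134 CPM in the Sox9HKO libraries. The groups did not overlap in this sum. Much of its difference was Fasn alone, with means of 715 CPM in the Sox9f/f and 202 CPM in the Sox9HKO libraries.

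**Figure D3:**
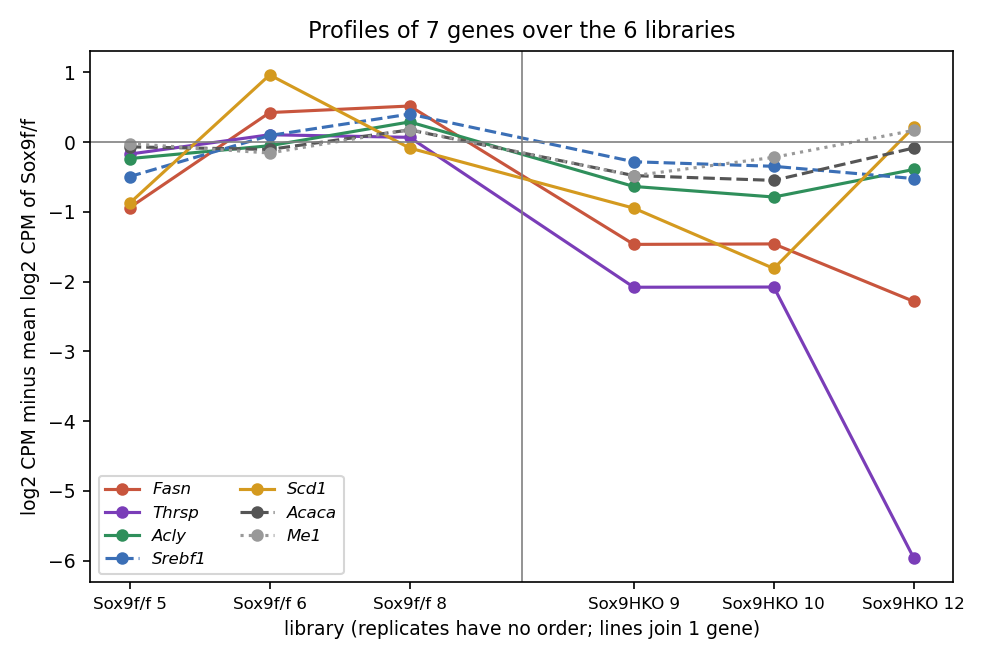
Log2 CPM of 7 of the 10 genes in each library, relative to the mean log2 CPM of the Sox9f/f libraries; lines join the values of 1 gene and carry no order. In Sox9HKO replicate 12 Thrsp and Fasn are at their lowest (1.67 and 134 CPM), while Scd1, Acaca and Me1 lie at or near Sox9f/f levels.

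The order of levels per length also differed between groups. In the Sox9f/f libraries Fasn had the highest mean at 49.5 FPKM ± 22.7 (SD, n = 3), followed by Thrsp at 37.7 ± 3.87, Me1 at 33.3 ± 4.38 and Acly at 32.9 ± 6.58. Next in FPKM came Scd1 at 20.8 ± 13.0, Srebf1 at 15.4 ± 4.71 and Mlxipl at 13.0 ± 3.00, and neighbours among these first 7 genes overlapped in range. Acacb at 7.75 ± 1.27 FPKM and Acaca at 7.69 ± 0.931 formed an overlapping pair, and Elovl6 was lowest at 4.66 ± 0.747, both apart from the genes above them.

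In the Sox9HKO libraries Me1 had the highest mean at 32.1 FPKM ± 6.87 (SD, n = 3), beside Acly at 23.2 ± 3.14. Fasn followed, apart from Acly, at 15.1 FPKM ± 4.56 and overlapped Mlxipl at 13.1 ± 4.34, while Scd1 (12.8 ± 8.74) and Srebf1 (12.4 ± 1.26) followed. Thrsp, second in the Sox9f/f order, was eighth here at 6.64 FPKM ± 5.20, between Acacb (7.73 ± 1.60) and Acaca (6.45 ± 1.10). Elovl6 again had the lowest mean, at 4.47 ± 0.684. Neighbours in this order overlapped in range except Acly and Fasn, Srebf1 and Acacb, and Acaca and Elovl6.

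The other genes whose profile over the 6 libraries was nearest to that of Fasn were found by the root mean square difference of centred log2 CPM, over 12720 tested genes with a mean of at least 1 CPM. They were Amigo3, an adhesion molecule gene, at 0.18, Tsku, which encodes a secreted proteoglycan, at 0.24, Rcan1, a calcineurin regulator, at 0.29, Mmp24, a membrane metalloproteinase, at 0.33, and Ddit3, the stress factor CHOP, at 0.40. Tsku stood at 322, 814 and 775 CPM in the Sox9f/f libraries and 220, 217 and 187 CPM in the Sox9HKO libraries. Among the lipogenic genes themselves Srebf1 (0.74) and Acly (0.77) were nearest to Fasn, and Thrsp was farthest at 1.34, since its span was so much wider. By this measure Srebf1 ranked 321 and Acly 434 among the 12720 genes. The other members ranked from 2359 (Acaca) to 11556 (Thrsp). This measure counts the size of a change as well as its pattern, so a late rank does not show a different pattern. Thrsp, like Fasn, was lowest in replicate 5 of the Sox9f/f libraries and in replicate 12 of the Sox9HKO libraries.

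Factors that process or partner SREBP1 and ChREBP were examined as a list of 14, all tested. None passed in edgeR, DESeq2 called 0, and 4 of 14 were lower at an unadjusted p under 0.05, against 10.1% of all tested genes, with a median log2 fold change of -0.08. The smallest p belonged to Mlx, the obligate partner of ChREBP (log2 fold change -0.72 ± 0.22 SE). It stood at 40.2, 44.1 and 50.1 CPM in the Sox9f/f libraries and 35.4, 18.6 and 27.7 CPM in the Sox9HKO libraries. Its groups did not overlap, and this held for 5 of the 14 with Sox9HKO below, against 14.3% of all tested genes. Usf2, an E-box factor, stood at -0.31 ± 0.11 and Nr1h2, the oxysterol receptor LXR-beta, at -0.35 ± 0.13. Insig1, which holds SREBP in the endoplasmic reticulum, stood at 218, 157 and 179 CPM against 183, 220 and 150 CPM, a log2 fold change of -0.0030 ± 0.18 (SE).

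Genes that bring carbon and NADPH to the pathway formed a list of 20, with a median of -0.22 and 15 negative. None passed in edgeR, where 6 of 20 were lower by the unadjusted p of 0.05, against 10.1% of all tested genes. DESeq2 called 3 of 20 lower, Khk and Pklr among them, against 2.05% of all genes. Khk, the ketohexokinase that starts fructose breakdown, stood at 403, 376 and 344 CPM in the Sox9f/f libraries and 227, 211 and 111 CPM in the Sox9HKO libraries (log2 fold change -1.03 ± 0.25 SE). Pklr, liver pyruvate kinase and a classical ChREBP target, stood at 592, 685 and 599 CPM against 402, 386 and 205 CPM (-0.92 ± 0.24). In both of these Sox9HKO replicate 12 was lowest and the groups did not overlap, as for Thrsp and Fasn. Pdhb, a pyruvate dehydrogenase subunit, was among the 3 smallest p of the list at -0.41 ± 0.11, also without overlap. Groups did not overlap, with Sox9HKO below, for 8 of the 20, against 14.3% of all tested genes.

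Other lipogenic target genes numbered 17, of which 16 were tested and Pnpla5 had no counts. Their median was -0.22, 10 were negative, and in edgeR 0 passed, with 4 lower and 1 higher at an unadjusted p under 0.05, against 10.1% and 9.74% of all tested genes. DESeq2 called Tkfc and Lpin1 lower, against 2.05% of all genes. Tkfc, the triose kinase of fructose breakdown, stood at 883, 1065 and 1059 CPM in the Sox9f/f libraries and 640, 569 and 556 CPM in the Sox9HKO libraries (-0.77 ± 0.13 SE). Lpin1, the phosphatidate phosphatase of triglyceride synthesis, stood at 538, 315 and 293 CPM against 131, 138 and 192 CPM (-1.32 ± 0.26). Its highest Sox9f/f library was replicate 5, the one lowest for Fasn. Pnpla3, a triglyceride remodelling gene, was near the floor at 0.502, 0.462 and 0.771 CPM against 0.112, 0.221 and 0.0363 CPM.

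Cholesterol synthesis, which shares acetyl-CoA and sterol-regulated control with fatty acid synthesis, was set beside it with 17 enzyme genes. Their median was -0.34, with 15 negative and 2 positive, against -0.39 for the fatty acid genes, and the difference between the lists was not tested. None passed in edgeR, 6 of 17 lay below the unadjusted p of 0.05 with lower values, against 10.1% of all tested genes. DESeq2 called 1 of 17, Fdps, against 2.05% of all genes. Fdps (-0.69 ± 0.18 SE), Fdft1 (-0.40 ± 0.12) and Mvk (-0.36 ± 0.12) had the smallest p. The largest decrease fitted in this list, that of Fdps, was smaller than those of Fasn and Thrsp.

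**Figure D4:**
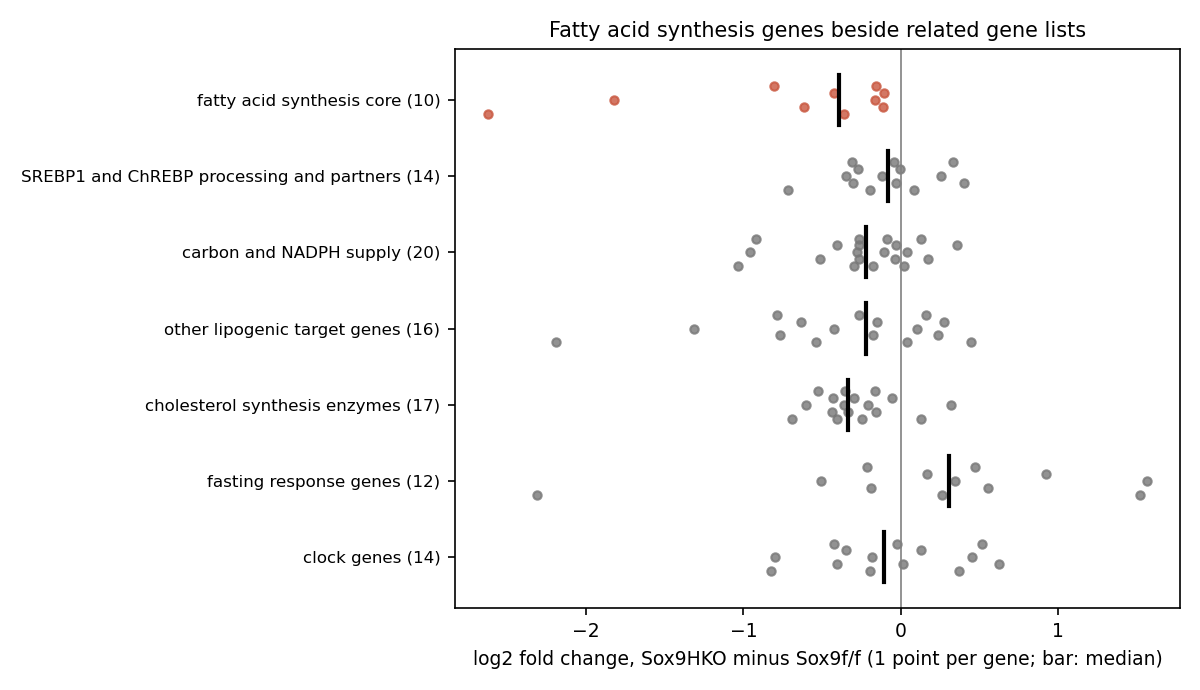
Log2 fold change (Sox9HKO minus Sox9f/f) of each tested gene in 7 lists, with the number tested in brackets and a bar at each list's median. Fatty acid synthesis genes all lie below 0 in this fit, with a median of -0.39 (Mlxipl and Acacb turn sign in the alternatives named in the text), and the fasting genes have a median of 0.30.

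Feeding state bears on all of these genes, so fasting response genes were measured beside them. Of 12, all tested, 8 were positive and 4 negative, with a median of 0.30. None passed in edgeR. By unadjusted p, Pdk4 and Irs2 were higher (9.74% of tested genes were) and Fgf21 was lower, and DESeq2 called Pdk4 and Irs2 higher, against 2.4% of genes. Pdk4, the kinase that shuts off pyruvate dehydrogenase in fasting, stood at 75.8, 45.7 and 29.2 CPM in the Sox9f/f libraries and 160, 163 and 122 CPM in the Sox9HKO libraries (1.56 ± 0.32 SE). Irs2, an insulin receptor substrate that rises in fasted liver, stood at 45.3, 19.8 and 18.1 CPM against 48.6, 71.0 and 119 CPM (1.52 ± 0.43). In both, Sox9f/f replicate 5 was the Sox9f/f library nearest to the Sox9HKO group, as it was for Fasn and Acly. Fgf21, a fasting and stress hormone, went the other way at 55.8, 471 and 102 CPM against 63.3, 35.5 and 28.1 CPM. The part of feeding state in the lipogenic values was not tested, and the labels give no time since the last meal.

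**Figure D5:**
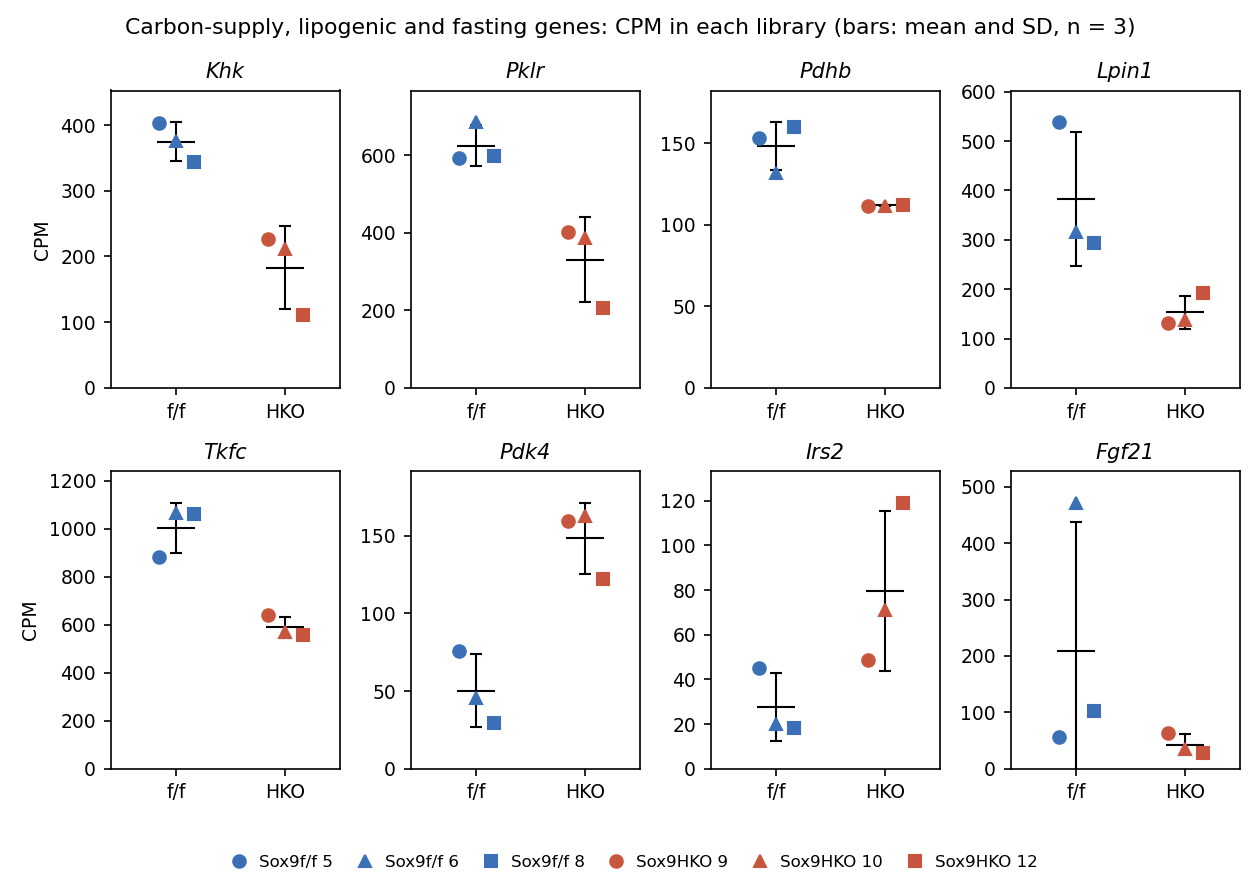
CPM in each library of 8 genes from the carbon-supply, lipogenic and fasting lists; points are libraries, bars the mean and SD of 3. Khk, Pklr, Pdhb, Lpin1 and Tkfc are lower in each Sox9HKO library than in any Sox9f/f library. Pdk4 and Irs2 are higher, and Fgf21 overlaps, its lower SD bar ending at the axis. All 8 are among the 3 smallest edgeR p of their lists, a choice that favours groups without overlap. Over all genes tested, groups did not overlap for 14.3% with Sox9HKO below and 12.2% with Sox9HKO above.

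Hour of day also sets lipogenic transcripts in liver. Of 14 clock genes, 6 were positive and 8 negative with a median of -0.10. In edgeR 0 passed and DESeq2 called 0, with Ciart (-0.80 ± 0.28 SE) and Nr1d2 (0.51 ± 0.20) under an unadjusted p of 0.05, 2 of 14 against 19.8% of all tested genes in either direction, and Per2 next at -0.82 ± 0.38. The part of sampling time was not tested.

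Markers of cell types were summed in each library, since bulk RNA cannot tell fewer cells of a type from less RNA per cell. Hepatocyte markers, which fit the labelled tissue, summed to 103409 to 109986 CPM in the Sox9f/f libraries and 86490 to 93683 CPM in the Sox9HKO libraries, with 8 of 10 negative and a median log2 fold change of -0.18. Alb, serum albumin, made up most of that sum, at 73644 to 78655 CPM against 58189.5 to 63893 CPM. Without Alb the other 9 markers summed to 29765 to 31331 CPM in the Sox9f/f libraries and 28300 to 30700 CPM in the Sox9HKO libraries, which overlap. Ductular markers, of which 8 of 10 were tested and all 8 were positive with a median of 1.06, summed to 73.5 to 95 CPM against 148 to 255 CPM. Spp1 made up 52.0% to 67.8% of that sum, and without it the other 9 summed to 35.3 to 44.4 CPM against 56.8 to 82.2 CPM. Stellate cell and matrix markers, 10 of 10 positive, summed to 543 to 664 CPM against 742 to 991 CPM. Macrophage markers, 10 of 10 positive, overlapped at 718 to 1167 CPM against 881 to 1571 CPM. Of all tested genes, 49.5% were negative. Groups did not overlap, with Sox9HKO above, for 6 ductular, 7 stellate and 1 macrophage marker, against 12.2% of all tested genes. With Sox9HKO below this held for 3 hepatocyte markers, against 14.3%. None of these markers passed in edgeR. DESeq2 called 4 ductular and 7 stellate markers higher, against 2.4% of genes, and 0 hepatocyte or macrophage markers. The part of these shifts in the lipogenic values was not tested. Fat tissue also expresses the lipogenic genes, and its defining markers Adipoq and Lep had 0 counts in all 6 libraries. Of the 8 adipocyte markers only Fabp4 and Car3 passed the filter. The list summed to 285 to 386 CPM in the Sox9f/f libraries and 165 to 390 CPM in the Sox9HKO libraries, nearly all of it Car3, which liver also expresses, and the other 7 markers summed to 9.21 to 12.9 CPM against 9.28 to 19.2 CPM.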

How the data were processed

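Whole-liver RNA-seq of 3 Sox9f/f and 3 Sox9HKO libraries was grouped by genotype label. The authors deposited raw counts for 34745 genes per the file headers, in whole numbers. The authors also deposited FPKM per the file headers, which matched counts over a fixed gene length and the library total (largest spread 0.0109% over 13046 genes). Per the submitters' processing notes, mm10 and GRCm38.p4 were the builds, and StringTie 1.3.0 was listed beside HISAT2 2.0.4, with no role stated. The counting tool and its strand setting were not given in the sources used here.

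The count test was edgeR 4.0.16 under R 4.3.3 (filterByExpr, TMM, robust quasi-likelihood test, no covariates), at an adjusted p of 0.05. Its p-values were adjusted by Benjamini-Hochberg over 14137 genes. All 10 genes passed the filter. CPM used TMM-scaled library sizes. Each standard error was the log2 fold change over the root of its F statistic, and intervals are at 95%. Alternatives were DESeq2 1.42.0, limma 3.58.1, other scalings and filters, trend removal and each library left out. The 558 genes without a DESeq2 adjusted p stayed missing. The scripts were tested on simulated data. Figures used matplotlib 3.10.9.

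The named genes were the 10 members, Sox9, the 3 of smallest edgeR p in each pathway list, Pklr, Insig1, Lpin1 and Pnpla3, and the 5 genes nearest to Fasn, except 1 gene that is not reported here; Adipoq, Lep, Fabp4, Car3, Alb and Pnpla5 were named after their counts were seen. Members and lists were chosen with earlier results of these data known. Itgam has more than 1 row, and the row of higher count was used. The labels do not say that the libraries came from separate animals, so p-values measure the spread between these samples, which may be technical.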

Additional observations from a re-analysis of the deposited data

How the results depend on the processing

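No paired analysis was possible because the groups share no replicate numbers. The count of all genes called was 0 in edgeR, 605 with DESeq2 and 10 without a filter, and 0 to 3 with 1 library left out. Of the 10 fatty acid synthesis genes DESeq2 called 2, Fasn and Acly, and leaving out 1 library gave 0 to 1, the call being Thrsp without Sox9HKO replicate 12. Their median log2 fold change of -0.39 stayed negative in all 18 alternatives. It was -0.26 with limma on log2(FPKM + 0.5), -0.27 on log2(FPKM + 0.1), -0.55 with the gene length trend removed, and -0.51 to -0.25 with 1 library left out. With limma voom the sign turned for Mlxipl (0.011) and Acacb (0.0059), and with library-size scaling for Mlxipl (0.0073). With 1 library left out, Mlxipl ranged from -0.38 to 0.10 and Acacb from -0.25 to 0.032. The other 8 genes kept a negative sign in all alternatives. The Mlxipl to Srebf1 log2 ratio difference ranged from -0.071 to 0.69 with 1 library left out, that of Acacb to Acaca from 0.025 to 0.56, and that of Scd1 to Fasn from 0.084 to 1.51. Removal of the length and GC trend together, added after the data were seen, gave a median of -0.49. The causes of these changes were not tested. The lowest count of any of these genes in a library was 46, so counting error was small beside the spread between the 3 libraries of a group.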
